A study of Nicotiana tabacum with 6 samples.

Results

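Leaves of tobacco plants that lack the plastid gene psbA were compared with leaves of plants that lack the plastid gene psaA, on 2 arrays of each genotype, which makes 4 of the 6 arrays of the series. All 10038 probe sets other than the Affymetrix and reporter controls were taken, of 10209 on the array. The tobacco (Nicotiana tabacum) cultivar is spelled Petit Havanna in the labels. Both mutants, and by the labels also the 2 wild-type arrays, came from plants kept dimly lit for 16 h and dark for 8 h of each day in tissue culture bottles, where spectinomycin was present at 500 mg/L. The harvested plants had been subcultured for 2 to 3 weeks. By their labels the 2 arrays of a genotype are biological replicates, but it is not stated if these were different plants or transformed lines, so each mutant may stand for 1 line. Whether wild type was truly grown on the drug is unclear, which touches the values against wild type and not the differences between the mutants. The wild-type arrays do enter the spread behind the p-values between the mutants. All p-values measure only the spread between these arrays.

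The psbA gene encodes the D1 protein of the photosystem II reaction centre, where water is oxidised, and psaA encodes a core protein of photosystem I, which passes electrons to ferredoxin. Photosystem II stands at the start of the photosynthetic electron transport chain and photosystem I at its end, so their loss interrupts the same chain at different points. Most proteins of the photosystems' antennae and of the carotenoid pathway are encoded in the nucleus, and their transcripts are known to respond to signals from the plastid. The question addressed here was which nuclear transcripts differ between a leaf without photosystem II and a leaf without photosystem I. Whether psbA and psaA themselves were measured could not be checked, because no probe set carries the symbol of a plastid-encoded gene.

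The probes were designed for tomato, so tobacco transcripts are measured only as far as their sequences match, and gene symbols below are those of tomato. What a gene is said to do is background on genes of that name. Values are on a log2 scale and were centred on each probe set's own median over the 6 arrays. A value of 0 is therefore that median and says nothing of how bright the signal was, and the genotype in the middle lies near 0 by construction. Differences are given as psbA deletion minus psaA deletion, with limma's standard error (SE) and n = 2 arrays per genotype, and a probe set is called where the Benjamini-Hochberg adjusted p was under 0.05. Over all tested probe sets, the difference between replicate arrays had a standard deviation of 0.229 in the psbA deletion, 0.205 in the psaA deletion and 0.208 in wild type, against 0.308 to 0.312 between a psbA array and a psaA array. Of the 63 reporter control probe sets 1 was picked because both mutants stood over 1 above wild type. It stood at 0.28 and 0.35 on the psbA arrays and at -0.08 and 0.08 on the psaA arrays, against -6.13 and -5.98 on the wild-type arrays. Both mutants were apart from wild type by about the same amount, so it does not check which mutant arrays are psbA and which psaA.

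In all, 404 of the 10038 probe sets were called between the mutants (4.02%), 181 of them higher in the psbA deletion (1.80%) and 223 lower (2.22%). In every one of the 404 the 2 psbA arrays did not overlap with the 2 psaA arrays. A small p from 2 arrays per genotype nearly requires this, so it adds no support. The share of all probe sets without such overlap was not counted. Differences of at least 2-fold were called in 93 probe sets, 23 higher and 70 lower. The median difference over all tested probe sets was 0.021. The same fit called 1130 probe sets between the psbA deletion and wild type (11.3%) and 1089 between the psaA deletion and wild type (10.8%). These comparisons share arrays with each other, so their values are set side by side only. The share of higher calls depended on the scaling. As deposited it was 44.8%, and with the arrays scaled on the spiked poly-A controls it was 6.79%, with 61 of 898 calls higher and the median of all probe sets at -0.218, because this scaling lowers every difference by the same 0.239. The number of calls depended on single arrays: 156 without psbA replicate 1, 198 without psbA replicate 2, 115 without psaA replicate 1, 134 without psaA replicate 2, and 267 without either wild-type array.

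Symbols were attached to 909 of the tested probe sets, which stand for 803 genes. With 1 probe set taken per gene, 169 of the 803 genes had an unadjusted limma p under 0.05, and 414 had a difference above 0. Of the 803, 13 genes rose in the psbA deletion relative to the psaA deletion and 37 fell, and the list counts below stand beside these shares. With each array left out in turn, 11 of these 50 genes were called every time: MPK3, LOC544153, loxD, Ve2, DGK1, Rab1A, Eix1, AOC, FPPS1 and PLDb1, which fell, and CAT2, which rose. The other 39 lost the call without at least 1 array, and between 14 (without psaA replicate 1) and 34 (without a wild-type array) of the 50 remained called. With poly-A scaling all 37 falls remained called, but only 4 of the 13 rises did, namely CAT2, CrtR-b1, PCNA and ca2.

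**Figure D1:**
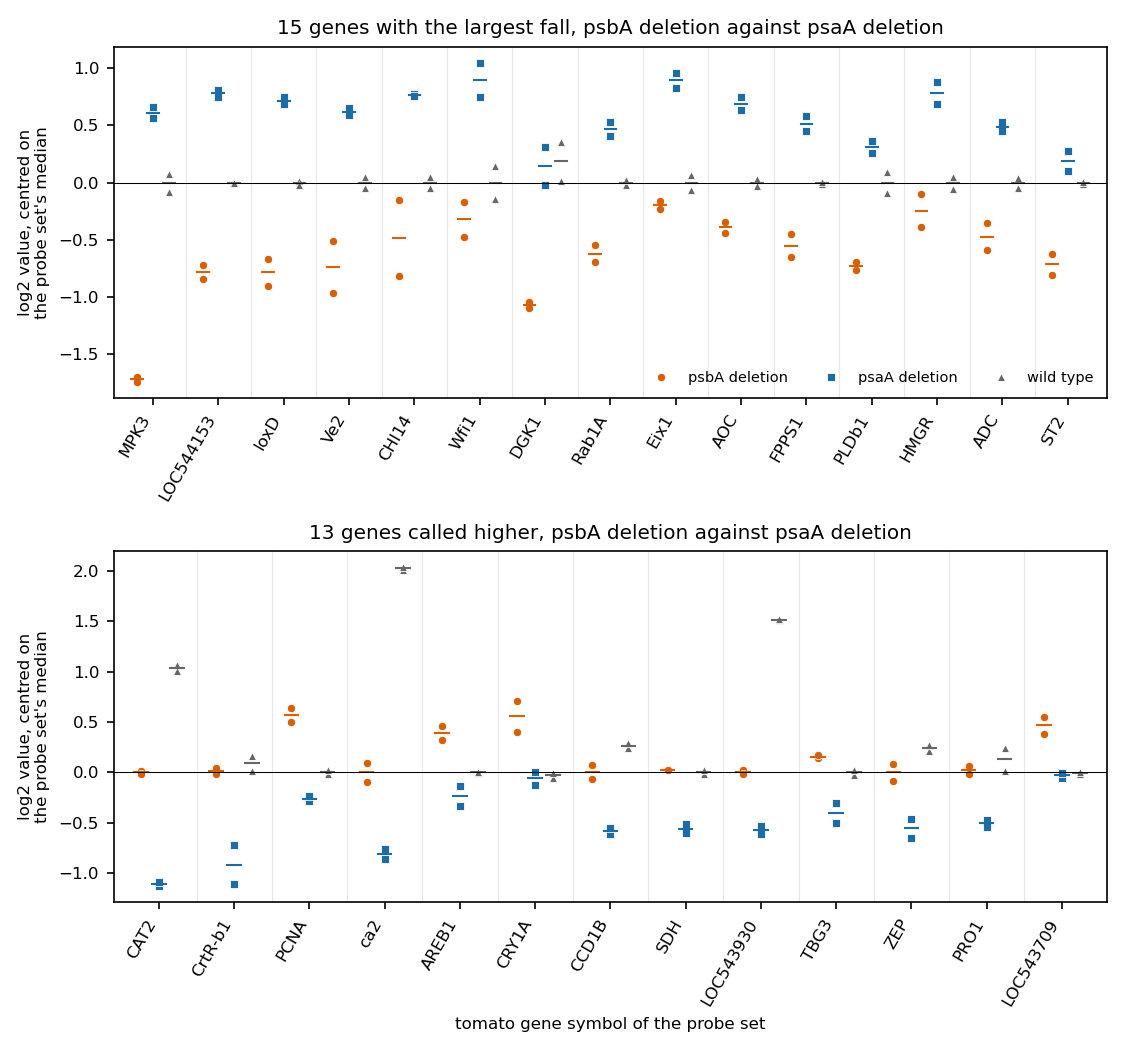
Centred log2 value (vertical axes) on each array for the 15 genes with the largest fall (top) and the 13 genes called higher (bottom) in the psbA deletion against the psaA deletion. Symbols are single arrays (circles psbA deletion, squares psaA deletion, triangles wild type) and short lines are means of 2 arrays. In the top panel wild type lies between the mutants in all genes but DGK1. Picking genes by the size of the fall favours this order, and its share among all probe sets was not counted. In the bottom panel both wild-type arrays are above all mutant arrays in CAT2, ca2, CCD1B, LOC543930 and ZEP.

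The largest difference among genes with a symbol was in MPK3 (gene ID 543880), a mitogen-activated protein kinase that relays wound and pathogen signals. It stood at -1.70 and -1.74 in the psbA deletion, at 0.56 and 0.66 in the psaA deletion and at -0.08 and 0.08 in wild type. All psbA arrays were low and all psaA arrays high, with wild type between them. The difference was 5.03-fold (log2 -2.33, SE 0.110, adjusted p = 5.18e-05). A further MPK3 probe set, shared with other transcripts by its suffix, gave -1.88 (SE 0.195, adjusted p = 0.00149), and the remaining one gave -0.35 (adjusted p = 0.167). Against wild type MPK3 was called in both mutants, at -1.72 in the psbA deletion (adjusted p = 0.000182) and at 0.61 in the psaA deletion (adjusted p = 0.00924).

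Among all 803 genes with a symbol 37 fell and 13 rose. Of the 10 genes listed for MAP kinase and related protein kinase signalling, 2 fell and 0 rose, with a list median of -0.12 against 0.021 over all tested probe sets. The second was MEK1, a MAP kinase kinase, at -0.05 and -0.21 in the psbA deletion and at 0.73 and 0.43 in the psaA deletion, with -0.15 and 0.05 in wild type. Its difference was -0.71 (SE 0.139, adjusted p = 0.0282), and the call ended without any 1 of the 4 mutant arrays. The other 8 genes were not called and lay on both sides of 0. The kinase kinases MKK3 and MKK4 gave 0.45 (adjusted p = 0.127) and 0.32 (adjusted p = 0.239), and MKK2 gave 0.04. The kinases MAPK10 and MPK2 gave -0.32 and -0.19, and the calcium-dependent kinases cpk1 and CDPK1 gave -0.33 and 0.11. MAPKKKalpha gave -0.04.

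The list with the most calls holds immune receptors and further immune signalling genes, NADPH oxidases and enzymes of lipid signalling. Of its 15 genes 8 fell and 0 rose, with a median of -0.51. Of all 803 genes with a symbol 37 fell, and 2.22% of all probe sets were called lower. The list and its members were chosen with earlier results of these data known, so this count is no test of the group. Between 5 and 7 of the 15 were called lower when 1 array was left out. The members differed in where wild type lay, as the following values show.

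Ve2 (gene ID 544230), a receptor-like protein of the Verticillium resistance locus, stood at -0.97 and -0.51 in the psbA deletion, at 0.65 and 0.59 in the psaA deletion and at 0.05 and -0.05 in wild type. The difference was -1.36 (SE 0.152, adjusted p = 0.00204). Ve1, the neighbouring receptor gene of that locus, gave -0.03 (adjusted p = 0.919, 95% interval -0.29 to 0.23). Eix1 (gene ID 543900), a receptor-like protein that binds a fungal xylanase, stood at -0.16 and -0.23 in the psbA deletion and at 0.96 and 0.83 in the psaA deletion, with 0.07 and -0.07 in wild type. Its difference was -1.09 (SE 0.111, adjusted p = 0.00141). For Eix1 the psaA arrays stood apart from wild type (0.89, adjusted p = 0.00151), while the psbA arrays gave -0.19 against wild type (adjusted p = 0.333).

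DGK1 (gene ID 544171), a diacylglycerol kinase, which turns diacylglycerol into phosphatidic acid, had the opposite arrangement. It stood at -1.05 and -1.09 in the psbA deletion, at -0.02 and 0.32 in the psaA deletion and at 0.02 and 0.36 in wild type. The psaA and wild-type arrays overlapped, and only the psbA arrays were low (-1.22 against the psaA deletion, SE 0.154, adjusted p = 0.00385). PLDb1, a phospholipase D, which also makes phosphatidic acid, stood at -0.76 and -0.69 in the psbA deletion, at 0.37 and 0.26 in the psaA deletion and at -0.09 and 0.09 in wild type. Its difference was -1.04 (SE 0.114, adjusted p = 0.00195), of which -0.73 lay between the psbA deletion and wild type (adjusted p = 0.00527) and 0.31 between the psaA deletion and wild type (adjusted p = 0.132). The other phospholipase D genes PLDa1, PLDa2, PLDb2 and PLDa3 were not called, at -0.48, -0.07, 0.02 and 0.01.

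Wfi1 (gene ID 543603), which encodes an NADPH oxidase subunit that makes superoxide, stood at -0.47 and -0.17 in the psbA deletion, at 0.75 and 1.05 in the psaA deletion and at 0.14 and -0.14 in wild type. The difference was -1.22 (SE 0.161, adjusted p = 0.00461), and it was not called without psaA replicate 2 (-1.07, adjusted p = 0.0616). A second NADPH oxidase gene, RBOH1, gave -0.45 (adjusted p = 0.0934). The 3 further genes of the list that fell are named only to complete the count, after their values were seen: NPR1, a regulator of salicylic acid responses (-0.84, adjusted p = 0.00556), RDRP, an RNA-dependent RNA polymerase (-0.65, adjusted p = 0.0378), and PTI1, a kinase of the Pto resistance pathway (-0.51, adjusted p = 0.0481). The NPR1 call ended without psaA replicate 1 (adjusted p = 0.0710), and the RDRP and PTI1 calls ended without any 1 of the 4 mutant arrays, and that of PTI1 also without either wild-type array (adjusted p = 0.0826).

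Where 37 of all 803 genes with a symbol fell, 2 of 12 pathogenesis-related genes fell and 0 rose, with a median of -0.20. Both encode chitinases, which cleave the fungal wall polymer chitin. CHI14 stood at -0.82 and -0.16 in the psbA deletion, at 0.77 and 0.75 in the psaA deletion and at 0.05 and -0.05 in wild type, a difference of -1.25 (SE 0.192, adjusted p = 0.0104). The psbA arrays were further apart from each other here than in most called genes. CHI9 stood at -0.15 and 0.15 in the psbA deletion and at 0.56 and 0.79 in the psaA deletion, with -0.16 and -0.24 in wild type (-0.68, SE 0.138, adjusted p = 0.0345). The other 10 members, among them the glucanase gene GluB (-0.09) and PR1b1 (0.04), were not called. Without psaA replicate 1 or without psaA replicate 2, neither chitinase gene was called, and the CHI9 call also ended without psbA replicate 1 or either wild-type array.

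Jasmonate is made from a plastid fatty acid by a lipoxygenase, allene oxide synthase, allene oxide cyclase and a peroxisomal reductase in turn. Of 14 genes of this pathway and of other lipoxygenases, 2 fell and 0 rose, with a median of -0.19, and both stayed called with each array left out. Of all 803 genes with a symbol 37 fell. The gene loxD (gene ID 544009), a plastid 13-lipoxygenase of jasmonate synthesis, stood at -0.67 and -0.90 in the psbA deletion, at 0.69 and 0.74 in the psaA deletion and at 0.02 and -0.02 in wild type. It was 2.83-fold lower in the psbA deletion (log2 -1.50, SE 0.117, adjusted p = 0.000412). AOC (gene ID 544306), the allene oxide cyclase, stood at -0.44 and -0.34 in the psbA deletion, at 0.74 and 0.64 in the psaA deletion and at -0.03 and 0.03 in wild type, a difference of -1.08 (SE 0.108, adjusted p = 0.00136). Both genes were lowest in the psbA deletion and highest in the psaA deletion on all arrays.

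AOS, the allene oxide synthase, which acts between these enzymes, was not called. It stood at 0.02 and -0.21 in the psbA deletion and at -0.06 and -0.02 in the psaA deletion, with 0.19 and 0.39 in wild type, a difference of -0.06 (adjusted p = 0.861, 95% interval -0.34 to 0.23). The reductase OPR3 gave -0.18 (adjusted p = 0.530), its relatives OPR1 and opr2 gave -0.05 and -0.20, and the receptor subunit COI1 gave 0.23 (adjusted p = 0.305). Among the other lipoxygenases, loxC gave -0.37 (adjusted p = 0.179), LOXB -0.25, TomloxE -0.20 and LOX1.1 0.09. For loxC the wild-type arrays, at 1.12 and 1.06, were above all 4 mutant arrays. The hydroperoxide lyase HPL gave -0.52 (adjusted p = 0.280), with psbA arrays at -0.72 and -0.15 and psaA arrays at -0.18 and 0.35. DES, a divinyl ether synthase, gave 0.07, and the plastid desaturase gene Fad7 gave 0.00 (95% interval -0.30 to 0.30). None of the 9 genes of the late wound response, such as the leucine aminopeptidase genes LAPA1 and LAPA2 and the threonine deaminase gene TD2, was called in limma. Of these 9 genes 0 had an unadjusted p under 0.05, against 169 of all 803 genes with a symbol. The differences of the 9 ran from -0.23 to 0.13.

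Polyamines are made from arginine or ornithine by decarboxylases. Of 7 genes of polyamine and S-adenosylmethionine metabolism 2 fell, both for arginine decarboxylase, and 0 rose, with a median of -0.34. Of all 803 genes with a symbol 37 fell. ADC (gene ID 543960) stood at -0.59 and -0.35 in the psbA deletion, at 0.53 and 0.45 in the psaA deletion and at -0.04 and 0.04 in wild type, a difference of -0.96 (SE 0.120, adjusted p = 0.00362). The gene adc1 gave -0.68 (SE 0.110, adjusted p = 0.0131). Of its 3 further probe sets 1 was called as well (-0.70, adjusted p = 0.0117), and the others were not (-0.65 with adjusted p = 0.159, and 0.05). ODC, the ornithine decarboxylase, gave -0.35 (adjusted p = 0.151). Without psaA replicate 1 both arginine decarboxylase calls ended, and that of adc1 also without psbA replicate 1 or psaA replicate 2.

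Few genes of the ethylene lists were called, where 13 of all 803 genes with a symbol rose and 37 fell. Of 11 genes of ethylene synthesis 1 fell, ACO4, an ACC oxidase (-0.58, SE 0.122, adjusted p = 0.0374), which stood at -0.02 and 0.02 in the psbA deletion and at 0.53 and 0.63 in the psaA deletion, with -0.56 and -0.29 in wild type. Both mutants were above wild type in ACO4 on all arrays, the psaA deletion by 1.00 (adjusted p = 0.00133) and the psbA deletion by 0.42 (adjusted p = 0.0626). Of 13 ethylene response factor genes 1 fell, DREB3 (-0.64, SE 0.114, adjusted p = 0.0197). Leaving out any 1 of the 4 mutant arrays ended the ACO4 and DREB3 calls. Of 15 receptor and core signalling genes and 10 ethylene-responsive and ripening genes none was called in limma, with 2 in each at an unadjusted p under 0.05. Among 9 abscisic acid genes LEA14, a late embryogenesis abundant protein gene, fell (-0.82, SE 0.111, adjusted p = 0.00521, not called without psaA replicate 1), and AREB1, a transcription factor of abscisic acid responses, rose (0.62, SE 0.117, adjusted p = 0.0244). The AREB1 call ended without any 1 of the 6 arrays.

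**Figure D2:**
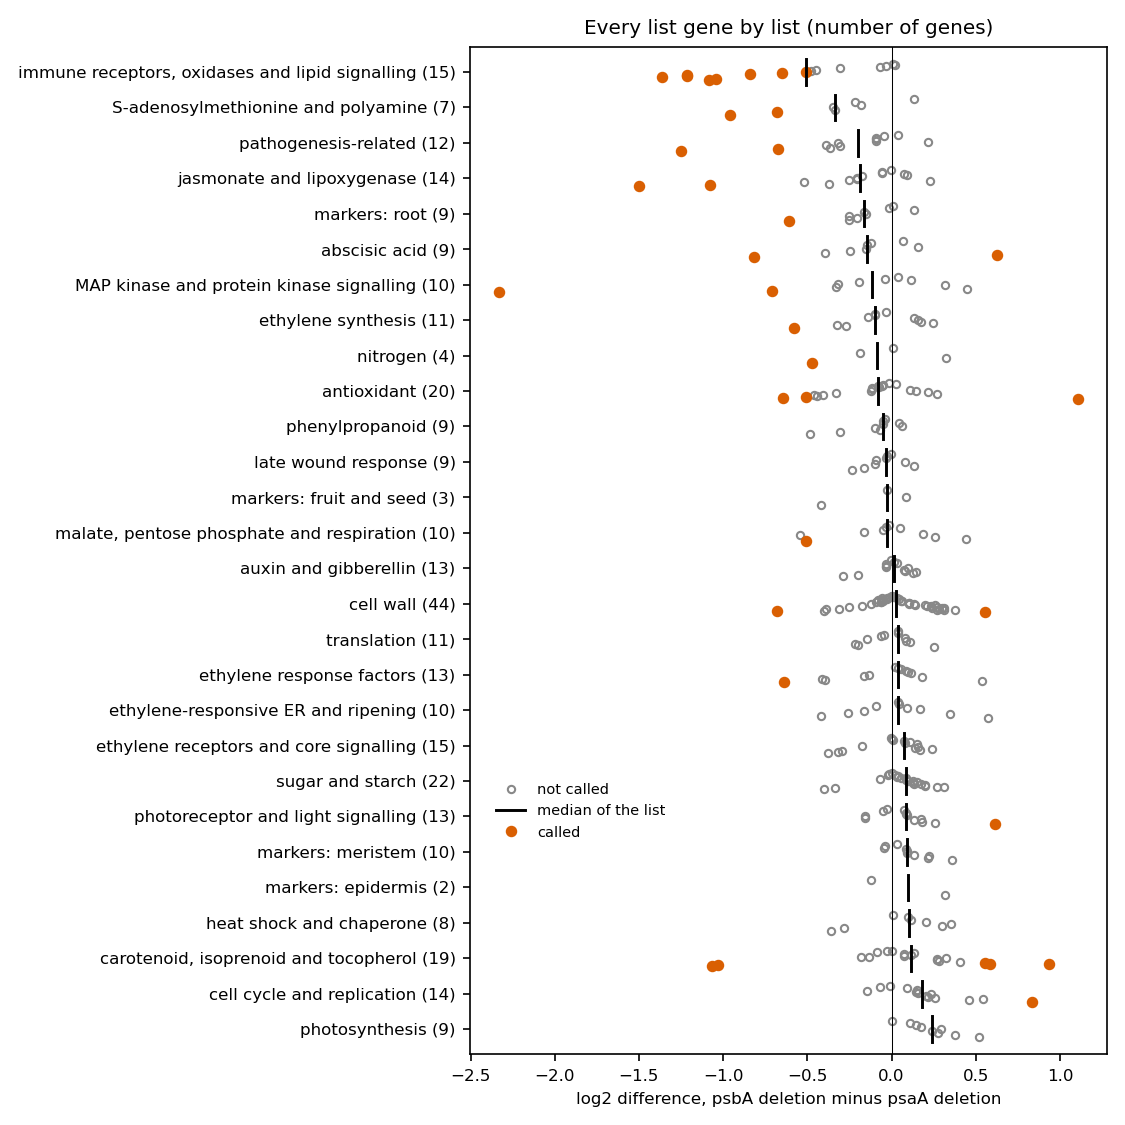
Log2 difference, psbA deletion minus psaA deletion (horizontal axis), of each list gene, with 1 row per list and the number of genes in brackets. The lists were chosen with earlier results of these data known. Filled points were called, open points were not, and the bar is the list's median; the list of immune receptors, oxidases and lipid signalling has 8 of 15 genes called lower, and the photosynthesis list has 0 called with all 9 above 0.

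Isoprenoids come from the mevalonate pathway in the cytosol and from a separate pathway in the plastid, which feeds the carotenoids. Among all 803 genes with a symbol 13 rose and 37 fell. Of 19 carotenoid, isoprenoid and tocopherol genes, 3 rose and 2 fell, with a median of 0.12 as deposited and -0.12 with poly-A scaling. The 2 that fell belong to the cytosolic pathway, and the 3 that rose act on carotenoids.

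FPPS1 (gene ID 543552), a farnesyl diphosphate synthase, stood at -0.45 and -0.65 in the psbA deletion, at 0.58 and 0.45 in the psaA deletion and at -0.01 and 0.01 in wild type, a difference of -1.07 (SE 0.116, adjusted p = 0.00193). HMGR (gene ID 543702), whose product makes mevalonate, stood at -0.39 and -0.10 in the psbA deletion, at 0.88 and 0.69 in the psaA deletion and at -0.05 and 0.05 in wild type, a difference of -1.03 (SE 0.134, adjusted p = 0.00429). Both genes were high on the psaA arrays and low on the psbA arrays, with wild type between. The HMGR call ended without psaA replicate 1 (adjusted p = 0.0593).

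CrtR-b1 (gene ID 544133), a beta-carotene hydroxylase that makes zeaxanthin, stood at 0.05 and -0.01 in the psbA deletion, at -1.11 and -0.72 in the psaA deletion and at 0.01 and 0.17 in wild type. It was 1.91-fold higher in the psbA deletion (log2 0.93, SE 0.143, adjusted p = 0.0104). ZEP, the zeaxanthin epoxidase of the xanthophyll cycle, stood at -0.08 and 0.08 in the psbA deletion and at -0.65 and -0.46 in the psaA deletion, with 0.21 and 0.27 in wild type (0.55, SE 0.119, adjusted p = 0.0400). In these genes the low arrays were those of the psaA deletion. CCD1B, a carotenoid cleavage dioxygenase, gave 0.58 (SE 0.107, adjusted p = 0.0228). Leaving out psaA replicate 1, psbA replicate 1 or psbA replicate 2 ended all 3 calls, and without psaA replicate 2 those of CCD1B and ZEP ended. The ZEP call also ended without either wild-type array.

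VDE, the violaxanthin de-epoxidase, which runs the xanthophyll cycle in the other direction, had 2 probe sets that disagreed. The one taken by the rule gave 0.00 (adjusted p = 0.993), while the other, singled out after its values were seen, stood at 0.01 and -0.01 in the psbA deletion, at -0.58 and -0.53 in the psaA deletion and at 1.08 and 1.16 in wild type (0.56, SE 0.103, adjusted p = 0.0231). The remaining carotenoid genes were not called. Their differences were 0.41 for the zeta-carotene desaturase ZDS (adjusted p = 0.0772), 0.28 for the phytoene synthase gene PSY2, 0.27 each for the cleavage gene CCD1A and the phytoene desaturase PDS, 0.12 for the cyclase LCY1, 0.08 for CRTL-E-1, -0.09 for Psy1 and -0.18 for NSY. In the plastid isoprenoid pathway DXR gave 0.32 (adjusted p = 0.397), HDS 0.07, DXS -0.03 and ISPE -0.14. PTOX, the plastid terminal oxidase, gave 0.13 (adjusted p = 0.795). For ZDS, PSY2 and PDS the psbA arrays were above the psaA arrays and below the wild-type arrays, an order whose share among all probe sets was not counted.

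Photosynthesis genes encoded in the nucleus were not called between the mutants. None of the 9 passed in limma, and 5 had an unadjusted p under 0.05, as did 169 of all 803 genes with a symbol. All 9 differences were above 0 as deposited, from 0.0017 to 0.52, with a median of 0.24, where 414 of all 803 genes with a symbol were above 0. With poly-A scaling the median was 0.0026, where that of all probe sets was -0.218. CAB4, an antenna protein gene of photosystem II, stood at -0.02 and 0.02 in the psbA deletion, at -0.43 and -0.62 in the psaA deletion and at 0.80 and 0.57 in wild type. Its difference was 0.52 (SE 0.125, adjusted p = 0.0615, 95% interval 0.24 to 0.81), and it was called with quantile normalization (adjusted p = 0.0408) and when only probe sets with a symbol were tested (adjusted p = 0.0402). The photosystem I antenna gene CAB6A gave 0.38 (adjusted p = 0.148), and the antenna gene CAB5 gave 0.30 (adjusted p = 0.273).

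The proteins of the oxygen-evolving complex sit on photosystem II, which is the complex the psbA deletion removes. PSBP stood at 0.00 and 0.00 in the psbA deletion, at -0.21 and -0.34 in the psaA deletion and at 0.69 and 0.75 in wild type, a difference of 0.28 (adjusted p = 0.219, 95% interval 0.03 to 0.52). PsbQ gave 0.18 (adjusted p = 0.470), PSBO 0.15 (adjusted p = 0.508) and PSBR 0.24 (adjusted p = 0.253). The plastocyanin gene PETE, whose product carries electrons to photosystem I, gave 0.11 (adjusted p = 0.687), and the protochlorophyllide reductase gene POR2 gave 0.0017 (adjusted p = 0.997). In 7 of the 9 genes both psbA arrays lay above both psaA arrays and below both wild-type arrays, and in PETE and POR2 the arrays of the mutants overlapped. How many of all probe sets have this order was not counted.

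**Figure D3:**
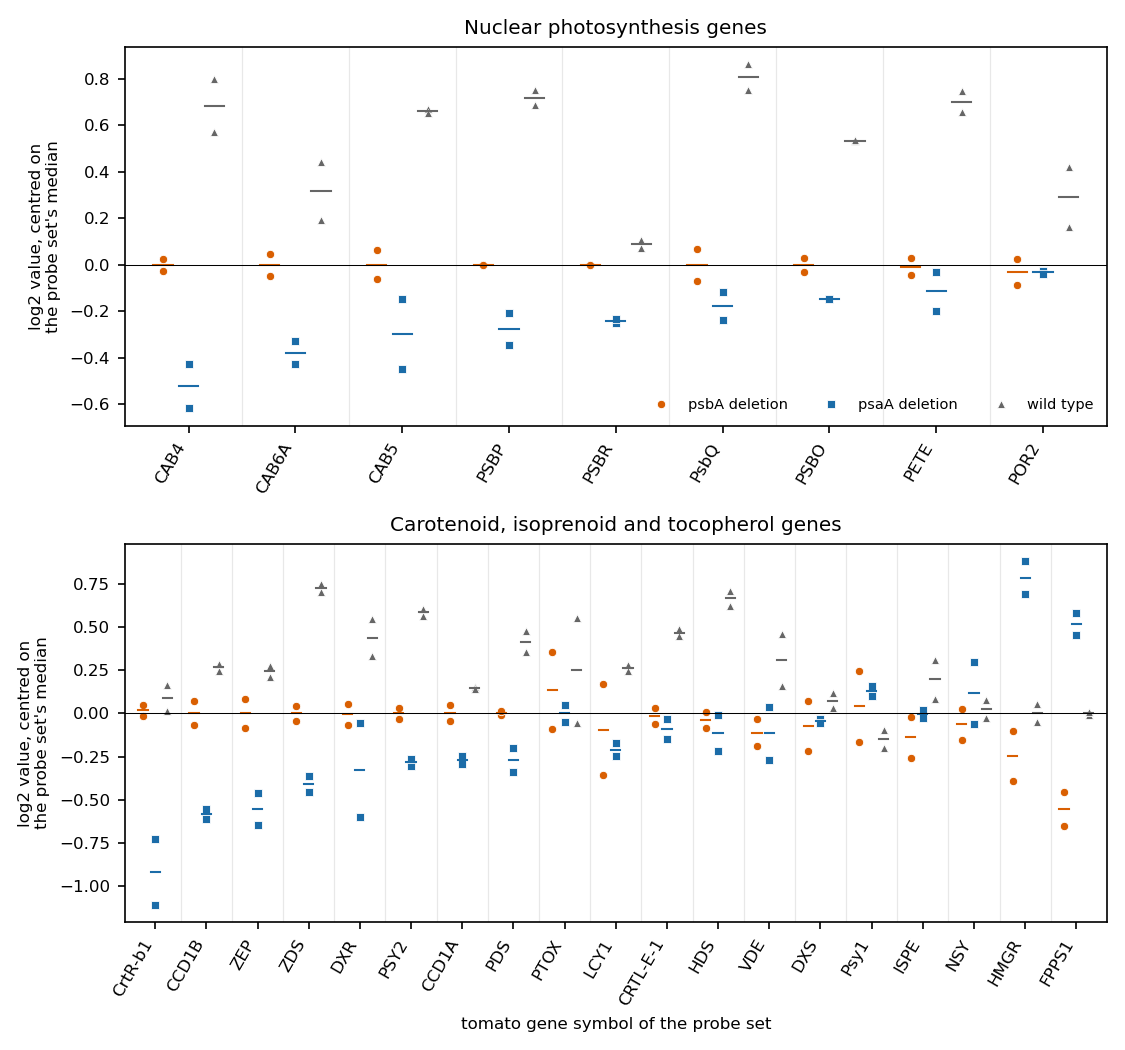
Centred log2 value (vertical axes) on each array for the 9 nuclear photosynthesis genes (top) and the 19 carotenoid, isoprenoid and tocopherol genes (bottom), each ordered by the difference between the mutants. Circles are psbA deletion arrays, squares psaA deletion arrays, triangles wild-type arrays, and short lines are means of 2 arrays; in the top panel wild type is highest in every gene, and in the bottom panel HMGR and FPPS1 are highest in the psaA deletion.

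Among 20 antioxidant genes 1 rose and 2 fell, with a median of -0.08, where 13 of all 803 genes with a symbol rose and 37 fell. CAT2 (gene ID 543585), a catalase, which breaks down hydrogen peroxide, had the largest rise of any gene with a symbol. It stood at 0.02 and -0.02 in the psbA deletion, at -1.13 and -1.09 in the psaA deletion and at 1.07 and 1.01 in wild type. The 3 genotypes did not overlap, and the psbA deletion lay between the others. The difference between the mutants was 2.15-fold (log2 1.11, SE 0.102, adjusted p = 0.00103). The other catalase gene, cat1, gave -0.41 (adjusted p = 0.134), with psbA arrays at -0.22 and 0.10, psaA arrays at 0.35 and 0.35 and wild-type arrays at -0.14 and -0.10.

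GPXle-1, a glutathione peroxidase, stood at -0.64 and -0.65 in the psbA deletion, at 0.03 and -0.03 in the psaA deletion and at 0.16 and 0.18 in wild type, a difference of -0.65 (SE 0.102, adjusted p = 0.0117). AOX1a, the alternative oxidase of mitochondria, stood at -0.07 and -0.05 in the psbA deletion and at 0.44 and 0.44 in the psaA deletion, with 0.05 and -0.10 in wild type (-0.51, SE 0.108, adjusted p = 0.0394). Leaving out any 1 of the 4 mutant arrays ended both calls, and that of AOX1a also ended without either wild-type array (adjusted p = 0.0629). The superoxide dismutase gene SODCC.1 gave -0.44 (adjusted p = 0.0617) and GPXle-2, a second glutathione peroxidase gene, -0.46 (adjusted p = 0.0943). A further GPXle-2 probe set gave -0.27 (adjusted p = 0.356). The other superoxide dismutase genes FESOD and SODCP.2 gave 0.22 and -0.08.

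Of the ascorbate and glutathione enzymes none was called. The ascorbate peroxidase genes APX, APX1 and APX2 gave 0.15, -0.12 and -0.11, the dehydroascorbate reductase genes DHAR1 and DHAR2 gave 0.02 and -0.06, and MDHAR gave 0.27 (adjusted p = 0.220). The glutathione synthesis genes GSH1 and GSH2 gave -0.33 and -0.12, GLDH, of ascorbate synthesis, gave -0.08, and the transferase gene GST-T4 gave 0.11. TPX2 and TPx1 gave -0.05 and -0.02. With poly-A scaling 6 antioxidant genes were called lower in place of 2, with GPXle-2, GSH1, cat1 and SODCC.1 added, and CAT2 was still called higher.

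PCNA (gene ID 544248), the sliding clamp of DNA replication, was the only 1 of 14 cell cycle and replication genes called. It stood at 0.64 and 0.50 in the psbA deletion, at -0.28 and -0.24 in the psaA deletion and at -0.02 and 0.02 in wild type, a difference of 0.83 (SE 0.107, adjusted p = 0.00411, and 0.0547 without psaA replicate 1). The list's median was 0.18 as deposited and -0.06 with poly-A scaling. The mitotic kinase genes CDKB1 and CDKB2 gave 0.46 (adjusted p = 0.062) and 0.54 (adjusted p = 0.167).

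The gene ca2 (gene ID 543803), named for carbonic anhydrase, stood at 0.09 and -0.09 in the psbA deletion, at -0.76 and -0.85 in the psaA deletion and at 2.01 and 2.03 in wild type. All 4 mutant arrays were far below wild type, and the psbA arrays were above the psaA arrays by 0.81 (SE 0.112, adjusted p = 0.00590). A second ca2 probe set gave 0.82 (adjusted p = 0.00509), while the other 2 gave 0.19 and 0.04 (adjusted p = 0.424 and 0.948). CRY1A, a cryptochrome photoreceptor for blue light, was the 1 of 13 photoreceptor and light signalling genes that was called. It stood at 0.71 and 0.40 in the psbA deletion and at -0.12 and 0.00 in the psaA deletion, with -0.06 and 0.00 in wild type (0.61, SE 0.129, adjusted p = 0.0377), and its second probe set gave 0.75 (adjusted p = 0.00981). Here the psbA arrays were the ones apart from wild type. The call of the first CRY1A probe set held without psbA replicate 2 and ended without any 1 of the other 5 arrays.

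In the other lists, as among all probe sets (4.02%), most genes were not called. Of 44 cell wall genes TBG3, a beta-galactosidase, rose (0.56, adjusted p = 0.0328) and XTH3, a xyloglucan endotransglucosylase, fell (-0.68, adjusted p = 0.0442). ME2, a malic enzyme, fell (-0.51, adjusted p = 0.0388) as 1 of 10 genes of malate, pentose phosphate and respiratory metabolism, and gad2, a glutamate decarboxylase, fell (-0.47, adjusted p = 0.0489) as 1 of 4 nitrogen genes. The TBG3, ME2 and gad2 calls ended without any 1 of the 6 arrays. That of XTH3 ended without any 1 array other than psaA replicate 1. The next counts use 1 probe set per gene. They leave out a called probe set of IAA3, an auxin-response repressor (0.77, adjusted p = 0.00653 in limma), that the rule did not take. In limma 0 of 22 sugar and starch genes, 0 of 9 phenylpropanoid genes, 0 of 8 heat shock and chaperone genes, 0 of 13 auxin and gibberellin genes and 0 of 11 translation genes were called, with 2, 2, 4, 1 and 0 at an unadjusted p under 0.05. Among all 803 genes with a symbol 169 were under that level.

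The remaining genes among the largest changes fall outside these lists. LOC544153, which the annotation gives only a number, stood at -0.72 and -0.84 in the psbA deletion, at 0.81 and 0.74 in the psaA deletion and near 0 in wild type (-1.56, SE 0.106, adjusted p = 0.000200). Rab1A, a small GTPase of vesicle traffic, stood at -0.55 and -0.69 in the psbA deletion and at 0.53 and 0.41 in the psaA deletion, with -0.02 and 0.02 in wild type (-1.09, SE 0.111, adjusted p = 0.00141). ST2 gave -0.91 (SE 0.118, adjusted p = 0.00429) with psbA arrays at -0.62 and -0.80, psaA arrays at 0.28 and 0.10 and wild-type arrays near 0. In LOC544153 and Rab1A wild type lay midway, and in ST2 it lay nearer to the psaA deletion. The rises of SDH (0.58), LOC543930 (0.57), PRO1 (0.53) and LOC543709 (0.50) had adjusted p from 0.0197 to 0.0467. LOC543930 stood at 1.51 and 1.52 in wild type, above all 4 mutant arrays, whereas LOC543709 differed from wild type in the psbA deletion (0.47, adjusted p = 0.0284) and not detectably in the psaA deletion (-0.02, adjusted p = 0.931).

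Among the 9129 probe sets without a symbol the differences reached larger sizes. Les.840.1.A1_at stood at -0.33 and 0.22 in the psbA deletion, at 3.05 and 3.01 in the psaA deletion and at -0.22 and -0.28 in wild type, so that the psaA arrays alone were high and the psbA deletion was 8.46-fold lower (log2 -3.08, SE 0.170, adjusted p = 6.79e-05). LesAffx.46243.1.S1_at stood at -1.32 and -1.28 in the psbA deletion, at 1.07 and 1.06 in the psaA deletion and near 0 in wild type (-2.36, SE 0.101, adjusted p = 5.18e-05). The arrangement of genotypes in this probe set was that of MPK3 and loxD. LesAffx.45315.4.S1_at stood at 0.14 and -0.06 in the psbA deletion and at -1.93 and -2.09 in the psaA deletion, with 0.06 and 0.12 in wild type (2.05, SE 0.119, adjusted p = 7.55e-05). LesAffx.56104.1.S1_at stood at 2.02 and 1.93 in the psbA deletion, at 0.04 and -0.04 in the psaA deletion and at -0.36 and -0.25 in wild type (1.97, SE 0.108, adjusted p = 6.79e-05). The first of these rises was a low level in the psaA deletion alone, and the second a high level in the psbA deletion.

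Measures of sample makeup and RNA quality were compared between the same arrays. Of 10 meristem, 2 epidermis and 3 fruit and seed marker genes 0 were called in limma, with 1, 0 and 1 at an unadjusted p under 0.05. Among all 803 genes with a symbol 169 were under that level. Of 9 root markers PT1, a phosphate transporter, fell (-0.61, adjusted p = 0.0489, a call that ended without any 1 of the 6 arrays), and the list's median was -0.16. Because values are centred, whether these markers were at background cannot be read. The difference between the 3' and the 5' control probe sets, a sign of RNA integrity, was lower in the psbA deletion than in the psaA deletion for actin (-0.40) and gapdh (-0.36), with both psbA arrays below both psaA arrays. For ef1a it depended on the 5' probe set, at -0.40, -0.05 and -0.47 with the 3 on the array. It was 0.02 for ubiquitin, 0.15 for GlutTrans and 0.10 for PhyB2. These values stand beside all the gene groups above, and their part in the results was not tested. In such leaf samples a lower share of a cell type and less RNA per cell cannot be told apart.

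**Figure D4:**
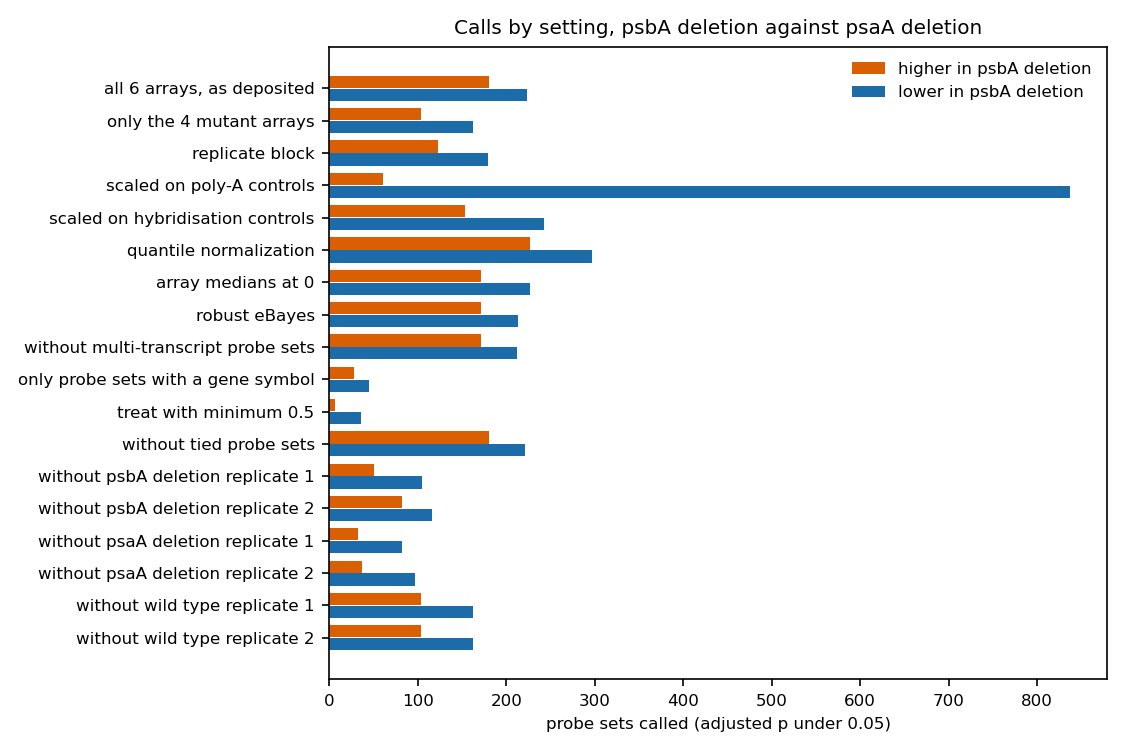
Number of probe sets called (horizontal axis, from 0) higher (upper bar) and lower (lower bar) in the psbA deletion against the psaA deletion under each processing setting. Scaling on poly-A controls gives 61 higher and 837 lower calls, and leaving out psaA replicate 1 gives 33 higher and 82 lower.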

How the data were processed

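The deposited table holds log2 values of 10209 probe sets on 6 Affymetrix tomato arrays, hybridised with biotin-labelled cRNA from 5 µg of total leaf RNA per the labels' protocols. The submitters' processing notes name RMA and GCRMA; which of them made the values, their versions and the base of the logarithm are not given in the sources used here, and base 2, which both methods give, was assumed. Every probe set had a median of 0 over the 6 arrays, so the deposited log2 values keep differences but no signal level or distance from background.

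From these values the 108 AFFX and 63 RPTR control probe sets were left out, and limma 3.58.1 (lmFit and eBayes, R 4.3.3) was fitted to all 6 arrays, which share 1 spread, with 3 residual and 5.37 prior degrees of freedom. Two-sided p-values were adjusted after Benjamini and Hochberg, with all 10038 probe sets as the family. The number of arrays limits the precision: the median SE was 0.125. The fit was tested on simulated data, and plots were drawn with matplotlib 3.10.9.

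Symbols came from the platform's annotation of tomato genes, which is old; 909 probe sets had 1 symbol, 207 of them a LOC number, and 9129 had none. One probe set was used per gene, a plain one ahead of any whose suffix marks several transcripts, then the first by ID. Genes were named by rule: among called genes whose psbA and psaA arrays do not overlap, the 15 largest rises (13 existed) and 15 largest falls; up to 4 called genes with the smallest p of each of 28 lists; every member of the MAP kinase, jasmonate, photosynthesis, carotenoid and antioxidant lists; further probe sets of named genes; and the 2 largest rises and falls without a symbol. The members and lists were chosen with earlier results of these data known; the lists were completed by symbol after the annotation was read, hold 343 genes in all, and 1 symbol was not found. No xylem marker was found among the symbols.

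The replicate numbers of the labels did not pair arrays: deviations of replicate 1 from the group mean correlated over probe sets with 0.0229 between psbA and psaA, -0.0081 between psbA and wild type and -0.00285 between psaA and wild type. The labels name no batch. Alternatives were other scalings (poly-A controls, hybridisation controls, quantile normalization, array medians), other fits (the 4 mutant arrays, a replicate block, robust eBayes, a minimum difference of 0.5), other sets of probe sets, and leaving out each array.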

Additional observations from a re-analysis of the deposited data

Results flagged for a closer look

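In 7 genes the psaA deletion was called above wild type and the psbA deletion below it, and the difference between these effects, which is the psbA minus psaA contrast of limma, was itself called. That last call was a condition for entering this group. Opposite calls against wild type make it nearly certain, so it is no further result. The difference was -2.33 for MPK3, -1.56 for LOC544153, -1.50 for loxD, -1.36 for Ve2, -1.09 for Rab1A, -1.07 for FPPS1 and -0.96 for ADC. Because it adds up 2 opposite changes, it is larger than either by construction. Against wild type the psbA deletion gave from -1.72 (MPK3) to -0.47 (ADC), and the psaA deletion gave from 0.47 (Rab1A) to 0.78 (LOC544153). In 6 of the 7 genes the difference was called with each array left out, and that of ADC was not called without psaA replicate 1.

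A signal lay outside the tested probe sets, in 1 of the 63 reporter control probe sets. It was 6.37 above wild type in the psbA deletion and 6.06 above wild type in the psaA deletion on the log2 scale, which is 82.5-fold and 66.5-fold, and the psbA deletion was 0.31 above the psaA deletion. The other 62 reporter probe sets differed from wild type by -0.51 to 0.43 in either mutant. With 2 arrays per genotype no test for outlying arrays was made.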

How the results depend on the processing

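The 404 calls (181 higher, 223 lower) ranged with 1 array left out from 115 to 267 (33 to 104 higher, 82 to 163 lower); these fits have fewer arrays. Without a wild-type array the count equals that of the 4 mutant arrays alone, 267 (104 higher), because a lone array adds no spread. Poly-A scaling, which lowers every difference by the same 0.239, gave 898 (61 higher, 837 lower). Why the poly-A controls differ between the mutants was not tested. A minimum difference of 0.5 gave 43 (7 higher, 36 lower), since it tests a larger change, and testing only the 909 probe sets with a symbol gave 73 (28 higher, 45 lower), since fewer were tested. A replicate block, although the numbers do not pair the arrays, gave 302 (123 higher, 179 lower). Hybridisation control scaling (396), quantile normalization (524), array medians (398), robust eBayes (385), no multi-transcript probe sets (384) and no probe sets with equal values on several arrays (402, chosen after seeing the data) stayed within 1.5 times. Of 60 called probe sets with a symbol none reversed its direction under any alternative, but most alternatives could not reverse one. Leaving out 1 array keeps the sign where the mutants' arrays do not overlap, and several fits leave the differences unchanged. Poly-A scaling shifts each difference by only 0.239. Under every setting that held them 6 were called: 2 of MPK3 and those of loxD, LOC544153, Ve2 and CAT2. The second MPK3 probe set was absent where multi-transcript probe sets were left out. Values hold no signal over background, so dim probe sets cannot be told from bright ones.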

Other observations

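Some genes had probe sets whose IDs differ only in the letter A or S. In 34 such pairs, looked at after the data were seen, the S probe set was called between the mutants in 4 and the A probe set in 0. The 4 were VDE (0.56), LOC543764 (0.60), LOC543892 (-0.60) and IAA3, an auxin-response repressor. For IAA3 the S probe set stood at 0.83 and 0.72 in the psbA deletion, at 0.03 and -0.03 in the psaA deletion and at -0.31 and -0.43 in wild type (0.77, adjusted p = 0.00653 in limma), and the A probe set gave 0.03 (adjusted p = 0.928). The rule for 1 probe set per gene took the A probe set in these genes, and taking S first would give 54 called genes in place of 50, with 16 higher and 38 lower.

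A pair of further genes had a called probe set that the rule did not take, and both are named after their values were seen. CYP85A1, a cytochrome P450 of brassinosteroid synthesis, was 1.05 higher in the psbA deletion at one probe set (adjusted p = 0.0373), with arrays at 0.82 and 1.28 in the psbA deletion, 0.02 and -0.02 in the psaA deletion and -0.30 and -0.95 in wild type, and gave 0.04 at the other. ERF3, an ethylene response factor, gave -0.62 at one probe set (adjusted p = 0.0223) and 0.09 at the other. Of 82 genes with more than 1 probe set, 10 had at least 1 called, 4 had at least 2 called, and 0 had calls in both directions.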
